A study of Mus musculus with 22 samples.

Results

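The comparison concerned 7 of the 22 mouse liver tumours of the study: 3 tumours driven by MYC with β-catenin (CTNNB1) and 4 driven by MYC with targeted p53, all 7 carrying the antigen construct lucOS. They were chosen by their sample names within the second of 2 deposited expression tables, where the β-catenin names end in MYClucOSCTNNB1 and the p53 names in MYCLucOSsgp53. LucOS is luciferase joined to peptides that T cells can recognise. The tumours arose in C57BL/6 mice after hydrodynamic injection of DNA into the tail vein, a rapid high-volume delivery that mainly reaches hepatocytes. MYC was common to all tumours, and the labels name no other treatment. The remaining group of the same table, 3 tumours with MYC, luciferase without the antigen and β-catenin, is called luc β-catenin here. It entered the fit for the estimate of spread and the filter on low values, and its values are given beside a few genes. The labels give no age, sex or form of the β-catenin construct, and they do not say whether tumours came from separate mice, so p-values measure the spread between these samples. The names of p53 tumours 1 to 3 begin with AL, whereas those of p53 tumour 4 and of all 6 β-catenin tumours of this table begin with JAX. The meaning of these prefixes is not given in the labels, and a difference tied to the prefix can be told apart from the driver only through p53 tumour 4. In the first table, with 3 lucOS p53 and 2 lucOS β-catenin tumours, all names begin with AL.

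β-Catenin is the messenger of canonical Wnt signalling: without Wnt it is degraded, and once stabilised it enters the nucleus and switches on genes together with TCF/LEF factors. In the liver this pathway sets up the pericentral programme, the enzymes that hepatocytes around the central vein use for ammonia capture and drug metabolism. p53 is the stress-activated transcription factor that halts the cell cycle or starts cell death after DNA damage. Cytotoxic T cells find antigen as peptides on MHC class I molecules, helper T cells see them on MHC class II, and the chemokines Cxcl9, Cxcl10 and Ccl5 draw such cells into tissue.

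Depth was 33.6 M to 40.8 M reads over genes in the p53 tumours and 45.6 M to 50.1 M in the lucOS β-catenin tumours, with 17529 to 18170 genes detected in each tumour of the table. Hepatocyte identity was checked on Alb, the serum albumin gene, which stood between 76240 and 535700 in the β-catenin tumours and between 70110 and 120500 in the p53 tumours, in units of the deposited normalized read count used throughout. The scale itself differed between the groups. The median of all 15625 genes tested differed by -0.16 log2 units, lower with β-catenin, and TMM factors relative to the deposited scale were 0.936 to 0.942 in every p53 tumour and 1.04 to 1.05 in every lucOS β-catenin tumour. List medians are therefore read against that of all genes.

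Of the targeted genes, Trp53, which encodes p53, was at 2223, 1345, 1900 and 1584 in p53 tumours 1 to 4 and at 4405, 3231 and 2631 in β-catenin tumours 1 to 3. The groups did not overlap, and the difference was 0.95 ± 0.23 (SE) on the log2(value + 1) scale, with an adjusted p of 0.0237 (limma, Benjamini-Hochberg over all genes). Trp53 was also lower in the first table, at 1423 to 1923 in its p53 tumours against 4994 and 3296. A total over the whole gene does not show whether intact p53 is made. Trp53 lost its call without β-catenin tumour 1 (adjusted p = 0.0629), p53 tumour 2 (0.0526) or p53 tumour 3 (0.0521). Ctnnb1 stood at 24220 to 25460 in the β-catenin tumours and 23510 to 35650 in the p53 tumours, overlapping (log2 difference -0.22, adjusted p = 0.343). Myc overlapped too, at 62.6, 105 and 375 with β-catenin and 68.5 to 130 with p53 (log2 difference 0.32, adjusted p = 0.737). A mouse gene symbol does not show whether reads of an injected construct are counted with it.

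Across all genes, 2656 of 15625 (17.0%) passed an adjusted p under 0.05: 950 were higher with β-catenin (6.08%) and 1706 were lower (10.9%). The groups did not overlap at all for 10.3% of genes in the higher and 22.5% in the lower direction. The balance of directions depended on scaling, since after TMM rescaling 1321 genes were called higher and 1023 lower. Changes of 4-fold or more were called for 356 genes in the higher and 441 in the lower direction. When the tumours with JAX names alone were compared, leaving p53 tumour 4 as a single sample assumed to vary like the others, 21 genes were called higher (0.134%) and 6 lower (0.0384%) among the same 15625 genes. The median difference of the genes called higher was 1.58 with all tumours and 1.33 with the JAX tumours alone. For the genes called lower it was -1.20 and -0.97. These genes were called with p53 tumour 4 in its group, so their values with the JAX tumours alone are a description.

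**Figure D1:**
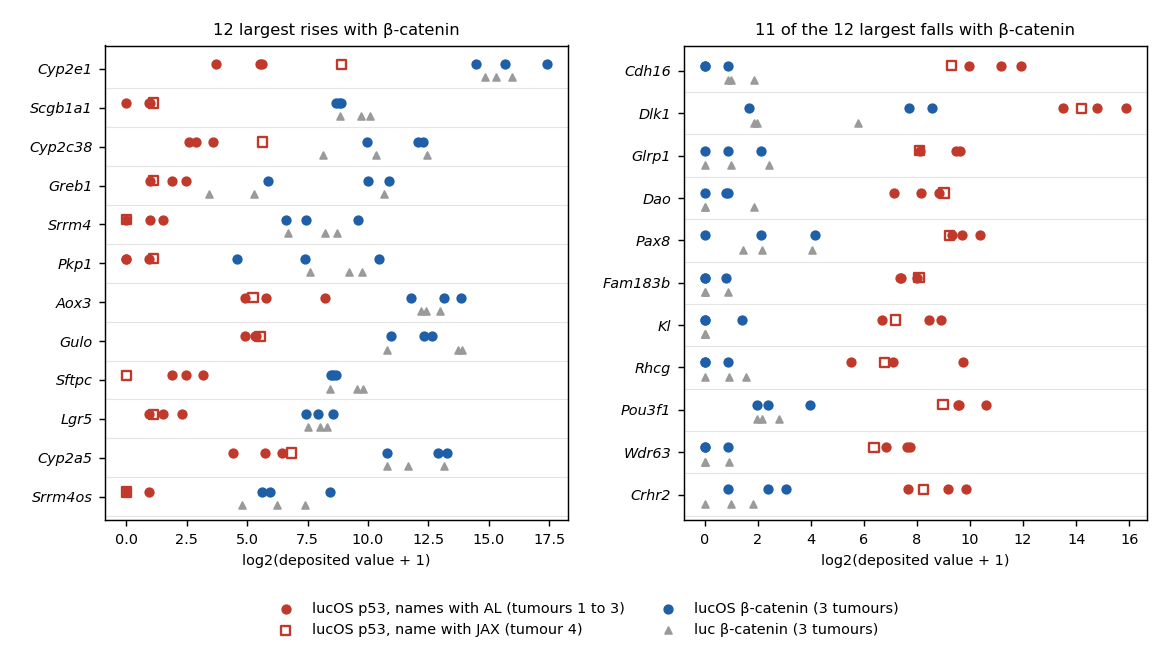
Values of the 12 genes with the largest rise and 11 of the 12 with the largest fall, as log2 of the deposited normalized read count plus 1, 1 point per tumour (red, lucOS p53, with tumour 4 as an open square; blue, lucOS β-catenin; grey triangles, luc β-catenin). Lack of overlap between the red and blue points was a condition for choosing these genes. For Greb1, 2 of the 3 grey triangles lie below all blue points.

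The largest rise was that of Cyp2e1, a pericentral cytochrome P450 that oxidises ethanol and small drugs (GENCODE vM21 on GRCm38, chromosome 7, 140763739 to 140774987, plus strand). It stood at 45.6, 11.96, 47.8 and 479 in p53 tumours 1 to 4 and at 22690, 52510 and 174500 in β-catenin tumours 1 to 3. The lowest β-catenin tumour was thus far above the highest p53 tumour, which was tumour 4. The difference was 9.92 ± 1.07 (SE) on the log2(value + 1) scale (adjusted p = 0.00121). With the JAX tumours alone it was 6.95 (adjusted p = 0.0807). Because β-catenin acts through TCF/LEF factors, the 250 bases before its RefSeq start are shown (GRCm38.p6, chr7:140763569-140763818, plus strand), with the single TCF/LEF core CTTTGA in capitals, 135 bases before the start:
Cyp2e1: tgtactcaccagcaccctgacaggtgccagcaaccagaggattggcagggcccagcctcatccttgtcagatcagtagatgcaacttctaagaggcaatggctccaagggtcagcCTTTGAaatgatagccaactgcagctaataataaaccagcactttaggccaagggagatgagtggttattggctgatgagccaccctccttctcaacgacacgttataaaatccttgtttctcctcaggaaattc

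The search covered both strands of 300-base windows, 250 bases before and 50 after each RefSeq start, on all chromosomes except chromosome 18. The letters CTTTGA were in 5 of the 10 windows found for pericentral genes, in 2 of the 12 found for Wnt targets (16.7%) and in 16.0% of all 32851 promoter windows. Such a match describes the letters and is neither a binding site nor a cause.

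Genes of Wnt feedback and signalling were higher with β-catenin. Of 11 members tested, 5 were called higher and 0 lower, and the list's median difference was 2.66, or 1.52 without β-catenin tumour 3. Of the 5, 4 reached 10 in under 3 p53 tumours and so passed the filter on low values through the β-catenin tumours, and the median without that filter was 2.86. Axin2, a scaffold of the β-catenin destruction complex that the pathway induces to restrain itself, was at 11.0, 11.0, 7.96 and 2.38 in the p53 tumours and at 680, 349 and 1047 in the β-catenin tumours. No β-catenin tumour came near the p53 range (log2 difference 6.28 ± 0.51, adjusted p = 0.000271). Lgr5, the R-spondin receptor that amplifies Wnt signals, was at 0.913 to 3.98 with p53 and at 247, 373 and 173 with β-catenin (6.51 ± 0.44, adjusted p = 0.000101). Both also passed with the JAX tumours alone, at adjusted p = 0.0141 for Axin2 and 0.0143 for Lgr5. Notum, a secreted enzyme that inactivates Wnt ligands, was at 3.65, 237, 13.9 and 8.32 with p53 and at 1788, 439 and 2882 with β-catenin (6.05 ± 1.17, adjusted p = 0.0116). p53 tumour 2 had the highest p53 value and was still below each β-catenin tumour. Tcf7, which encodes a TCF factor made by T cells as well, was at 54.7 to 138 with p53 and at 761, 911 and 643 with β-catenin (3.06 ± 0.43, adjusted p = 0.00408). Nkd1, an inhibitor of Dishevelled, was at 1.99 to 11.0 with p53 and at 63.3, 72.1 and 1231 with β-catenin (4.95 ± 1.07, adjusted p = 0.0165). Its value in β-catenin tumour 3 stood apart from the other 2.

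Pericentral hepatocyte genes moved the same way. Of 15 members, 9 were called higher and 0 lower, with a median of 3.58 and the summed value of the list at 66600 to 256800 with β-catenin against 11570 to 22560 with p53. Lect2, a liver-secreted cytokine, was at 47.5, 86.5, 37.8 and 82.0 with p53 and at 2604, 2178 and 904 with β-catenin (log2 difference 4.83 ± 0.41, adjusted p = 0.000342). Cyp1a2, which metabolises caffeine, was at 12.8 to 49.9 with p53 and at 3926, 260 and 890 with β-catenin (4.98 ± 0.87, adjusted p = 0.00823). Rhbg, an ammonium transporter, was at 0 to 8.28 with p53 and at 638, 61.4 and 166 with β-catenin (5.56 ± 0.91, adjusted p = 0.0065). Glul, the glutamine synthetase that defines the innermost pericentral cells, was not called: its values were 5940, 5667, 6927 and 9859 with p53 and 11960, 7394 and 13390 with β-catenin. There the groups overlapped because p53 tumour 4 exceeded β-catenin tumour 2 (0.61 ± 0.27, adjusted p = 0.134). Other genes with the largest rises included Aox3, an aldehyde oxidase, at 29.2 to 299 with p53 and 3557 to 14860 with β-catenin (6.89 ± 0.75, adjusted p = 0.00129, and 0.0213 with the JAX tumours alone). Gulo, the last enzyme of vitamin C synthesis, was at 28.9 to 45.2 with p53 and 2009 to 6461 with β-catenin (6.71 ± 0.69, adjusted p = 0.00096).

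Drug-metabolising cytochrome P450 genes were called higher for 11 of 19 members and lower for 0, with a list median of 3.11 with all tumours and 1.80 with the JAX tumours alone. Of the 11, 5 reached 10 in under 3 p53 tumours and so needed the β-catenin tumours to pass the filter on low values. The median was also 3.11 without that filter. Cyp2a5, a coumarin hydroxylase, was at 86.7, 20.2, 51.7 and 114 with p53 and at 1765, 7632 and 9842 with β-catenin (log2 difference 6.46 ± 0.78, adjusted p = 0.00207). Cyp2c38, at 4.98 to 48.7 with p53, reached 4282, 1008 and 5018 with β-catenin (7.77 ± 1.05, adjusted p = 0.00362). Cyp2c37 and Cyp2c29 differed by 4.22 and 4.28 (adjusted p = 0.00276 and 0.0135). Genes of the Cyp2a and Cyp2c clusters have near-identical neighbours, so their separate values are uncertain. Por, the reductase that feeds electrons to these enzymes, was at 4839, 5055, 5122 and 9488 with p53 and at 14870, 21030 and 33370 with β-catenin (1.90 ± 0.33, adjusted p = 0.00855), so p53 tumour 4 lay between the other p53 tumours and the β-catenin tumours. Cyp3a11, the major mouse relative of the human drug enzyme CYP3A4, showed the same order, at 2095, 2294, 6781 and 17150 with p53 and 20530, 25120 and 58510 with β-catenin, but was not called (2.68 ± 0.89, adjusted p = 0.0647). The count of members called in this list fell to 7 without β-catenin tumour 3.

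Bile acid genes were called higher for 6 of 13 members and lower for 0 (median 1.78), a count that fell to 1 without β-catenin tumour 3. Abcb4, the canalicular pump that moves phospholipid into bile, was at 2805, 2962, 5326 and 5482 with p53 and at 8422, 13770 and 21280 with β-catenin (log2 difference 1.78 ± 0.35, adjusted p = 0.0125). Slc27a5, which activates bile acids for conjugation, was at 335 to 3531 with p53 and 8379 to 18330 with β-catenin (3.36 ± 0.73, adjusted p = 0.0166), and Baat, the conjugating enzyme, was 1.94 ± 0.43 higher (adjusted p = 0.0173). Without β-catenin tumour 3 the adjusted p of Slc27a5 was 0.0593 and that of Baat 0.0541. Cyp7a1, the rate-limiting enzyme of bile acid synthesis, did not pass, at 2389 to 4077 with p53 and 4384 to 12220 with β-catenin (adjusted p = 0.216), although its groups did not overlap. Fatty acid oxidation and PPARα target genes were called higher for 5 of 15 members (median 1.40), falling to 1 without β-catenin tumour 3 or p53 tumour 3. Acot1, a thioesterase induced by fasting, was at 221, 808, 426 and 631 with p53 and at 7276, 2788 and 1573 with β-catenin (2.76 ± 0.58, adjusted p = 0.0151). Of 16 genes of fatty acid and sterol synthesis, 2 were called higher (0 without β-catenin tumour 3), beside 6.08% of all genes. Me1, the malic enzyme that supplies NADPH, was among them, at 320 to 1337 with p53 and 2268 to 11250 with β-catenin (adjusted p = 0.0138, and 0.0505 without β-catenin tumour 3). Fasn, the fatty acid synthase, was at 36460 to 67900 with p53 and 20900 to 39620 with β-catenin and was not called (adjusted p = 0.149). Oxidative stress response genes were called higher for 4 of 12 (1 without β-catenin tumour 3 or p53 tumour 1). Among them Srxn1, which repairs oxidised peroxiredoxins, was at 116, 306, 330 and 194 with p53 and at 3505, 930 and 2455 with β-catenin (3.19 ± 0.47, adjusted p = 0.00469).

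Of 17 genes of general hepatocyte identity, called mature hepatocyte genes here, 3 were called higher and 0 lower. Over all genes 6.08% were called higher and 10.9% lower. The list's median was 0.56 with all tumours and 0.03 with the JAX tumours alone. The count was 1 without β-catenin tumour 3 and 5 without p53 tumour 4. Alb and Ttr, the transthyretin gene, were not called (adjusted p = 0.353 and 0.232). Tdo2, the tryptophan dioxygenase, was at 97.7, 91.1, 305 and 7016 in p53 tumours 1 to 4 and at 26430, 22130 and 46080 with β-catenin (log2 difference 6.33 ± 1.28, adjusted p = 0.0132). Here p53 tumour 4 stood much nearer the β-catenin tumours than the other p53 tumours, and the difference with the JAX tumours alone was 2.10. In edgeR the adjusted p of Tdo2 was 0.0731. Tdo2 in the first table was at 13170, 11380 and 739 with p53 and at 21540 and 33710 with β-catenin. Tat, the tyrosine aminotransferase, was at 406 to 2303 with p53 and 3340 to 18220 with β-catenin (3.36 ± 0.71, adjusted p = 0.0155, and 0.0554 without β-catenin tumour 3). Of 15 periportal genes, those of the portal side of the lobule, 1 was called higher and 0 lower, with a median of -0.20. The median was 0.38 in edgeR and between -1.23 (without β-catenin tumour 2, with 3 members called lower) and 0.18 (without β-catenin tumour 3) with 1 tumour left out, and the call was lost without any 1 tumour other than β-catenin tumour 2. Gls2, the liver glutaminase, was at 4513 to 5312 with p53 and at 578, 4453 and 802 with β-catenin (adjusted p = 0.109). Of 16 acute phase genes 0 passed in limma, 5 had an unadjusted p under 0.05, and 1 passed in edgeR and 3 in DESeq2.

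**Figure D2:**
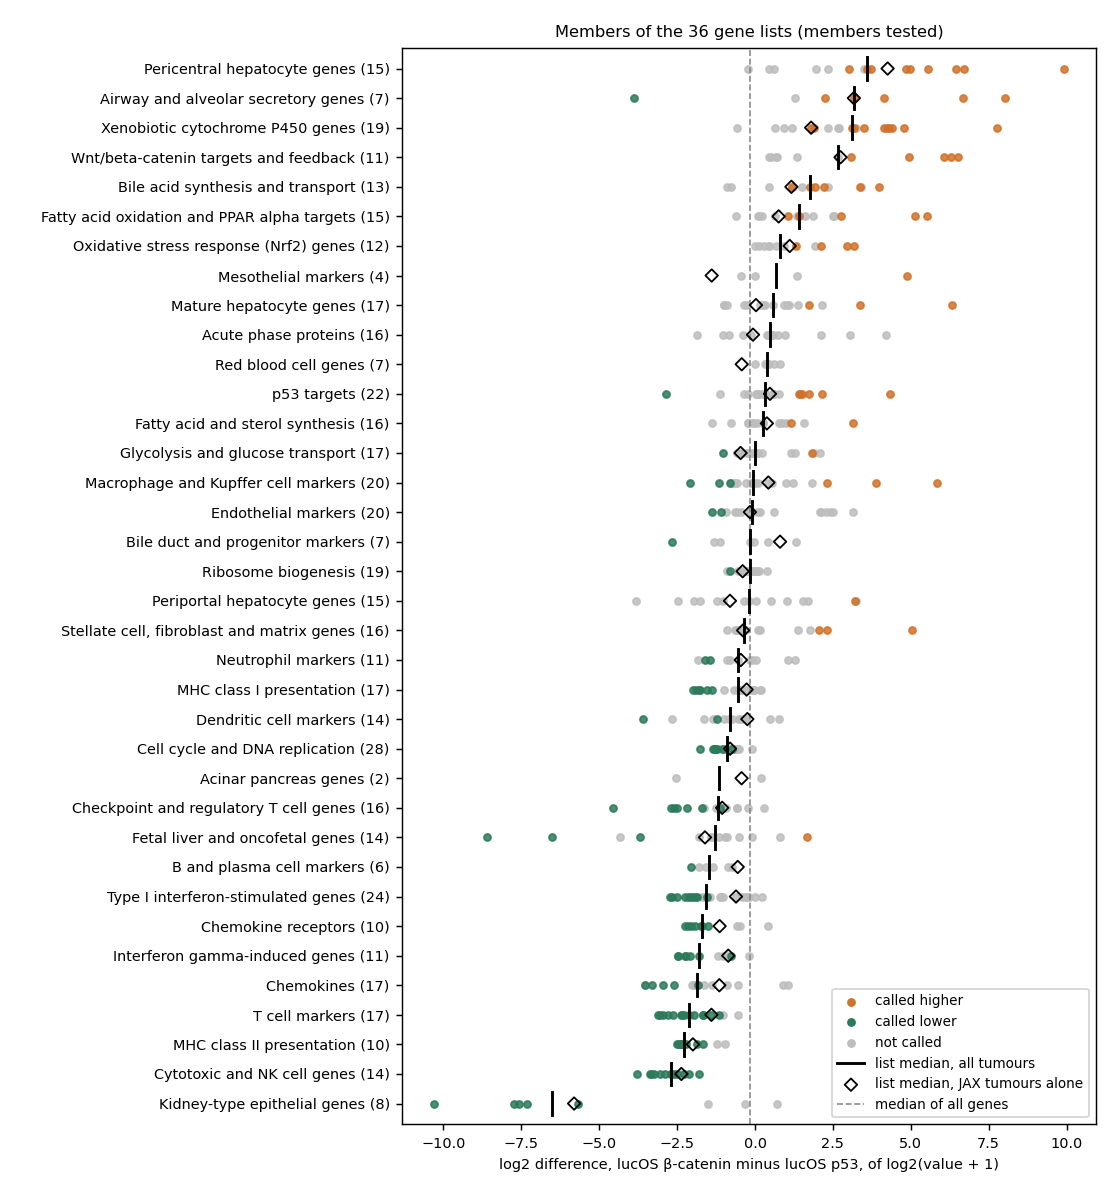
Differences between lucOS β-catenin and lucOS p53 tumours for the members of 36 gene lists, 1 point per gene (orange, called higher; green, called lower; grey, not called), with the list median as a bar, its value with the JAX tumours alone as a diamond and the median of all genes, -0.16, as a dashed line. Pericentral genes have the highest median (3.58), and the medians of cytotoxic, MHC class II and T cell genes lie far below the dashed line. The kidney-type median (-6.51) covers the 8 of 15 members that passed the filter on low values and was -1.50 without it.

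p53 target genes were called higher for 6 of 22 members and lower for 1, with a median of 0.32 (0.48 without β-catenin tumour 1). Eda2r, a receptor of the TNF family, was at 17.3, 30.4, 19.9 and 35.7 in the p53 tumours and at 544, 735 and 346 in the β-catenin tumours (log2 difference 4.33 ± 0.53, adjusted p = 0.00228). Ccng1, a cyclin that p53 induces, was at 1551, 1302, 1196 and 1219 with p53 and at 2838, 2882 and 5257 with β-catenin (1.42 ± 0.23, adjusted p = 0.00635). Phlda3, an inhibitor of Akt, and Zmat3, an RNA-binding growth suppressor, were 2.16 and 1.73 higher (adjusted p = 0.02 and 0.0209). Phlda3 lost its call without β-catenin tumour 2 or 3 or p53 tumour 1 or 3, with adjusted p up to 0.0545, and Zmat3 without β-catenin tumour 2 (0.0573) or p53 tumour 1 (0.057). The number of targets called higher fell to 2 without either of the latter tumours. The best known targets did not pass: Cdkn1a, the cell cycle inhibitor p21, was at 1410 to 2413 with p53 and 861 to 3877 with β-catenin (adjusted p = 0.945), and Mdm2, the ligase that degrades p53, was at 1586 to 2608 and 2183 to 2752 (adjusted p = 0.336). Pmaip1, which encodes the death protein Noxa, went the other way, at 601, 575, 948 and 522 with p53 and 85.1, 164 and 47.7 with β-catenin (-2.86 ± 0.49, adjusted p = 0.00792).

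Cell cycle and DNA replication genes were called lower for 10 of 28 members and higher for 0, with a median of -0.91 (-0.50 without β-catenin tumour 3), and 1 of the 28 lay above the median of all genes. The count was 4 after TMM rescaling and in edgeR, 6 after median centring and 6 without the filter on low values. With 1 tumour left out it was 18 without β-catenin tumour 1 but at most 5 without any other, with 2 as the lowest, without p53 tumour 1 or 3. Top2a, the topoisomerase of dividing cells, was at 27710, 21470, 22290 and 16980 with p53 and at 10600, 6426 and 3738 with β-catenin (log2 difference -1.78 ± 0.30, adjusted p = 0.00757). Foxm1, a transcription factor of mitosis, was at 1991 to 3028 with p53 and 1570, 1097 and 674 with β-catenin (-1.29 ± 0.28, adjusted p = 0.016). β-Catenin tumour 3 was the lowest in each of these. Mki67, the proliferation marker Ki-67, was at 19030 to 31480 with p53 and at 18960, 12220 and 5539 with β-catenin (adjusted p = 0.0465); its call was lost without any single tumour other than β-catenin tumour 1, with adjusted p up to 0.108, and after TMM rescaling (0.0742), median centring (0.0618), in edgeR (0.106) and in DESeq2 (0.0543). The kinase gene Aurkb was lower (-1.34 ± 0.32, adjusted p = 0.0227), with 0.0609 without p53 tumour 1 and 0.0575 without p53 tumour 3. Of 19 ribosome biogenesis genes 1 was called, lower, and 0 after TMM rescaling or without β-catenin tumour 2 or 3 or p53 tumour 1, 3 or 4. Over all genes 10.9% were called lower.

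Within the second table, several genes of fetal liver or of epithelium outside the liver were higher in every p53 tumour than in any lucOS β-catenin tumour. Of 14 fetal liver and oncofetal genes tested, 3 were called lower and 1 higher, the latter in no fit that left out a tumour other than β-catenin tumour 1. Dlk1, a Notch-related surface protein of fetal hepatoblasts, was at 59460, 28540, 11450 and 18990 with p53 and at 2.18, 207 and 379 with β-catenin (log2 difference -8.61 ± 1.57, adjusted p = 0.00933). Trim71, a regulator of early embryonic growth, was at 934, 1290, 1009 and 1014 with p53 and at 1.46, 20.7 and 28.0 with β-catenin (-6.51 ± 1.05, adjusted p = 0.00635). Plag1, a growth-promoting transcription factor, was at 149, 89.2, 32.8 and 97.4 with p53 and at 4.37, 9.95 and 3.29 with β-catenin (-3.70 ± 0.62, adjusted p = 0.00726). Afp, the fetal albumin, overlapped, at 6164 to 37410 with p53 and 93.2, 58170 and 100 with β-catenin (adjusted p = 0.215). The growth factor gene Igf2 and the neighbouring H19 were not called (adjusted p = 0.3 and 0.934), and both were lowest in β-catenin tumour 3, at 14480 for Igf2 and 156500 for H19.

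Of 15 kidney-type epithelial genes, 7 had values too low to test, 5 were called lower and 0 higher. Of these 5, 4 passed the filter on low values only through the p53 tumours, where they are high, so their count and the median of the 8 tested (-6.51) are a description. Without the filter the median was -1.50, and with the JAX tumours alone under their own filter it was -2.25. Cdh16, the kidney cadherin (chromosome 8, 104601911 to 104624396, minus strand), was at 2296, 996, 3914 and 629 with p53 and at 0, 0.8292 and 0 with β-catenin. The β-catenin group held 1 read in all against 8062 in the p53 group (log2 difference -10.30 ± 0.63, adjusted p = 5.71e-05). With the JAX tumours alone on the genes of the full comparison, the difference of Cdh16 was -9.01. Under the JAX tumours' own filter Cdh16 was not tested. Pax8, a transcription factor of kidney and thyroid, was at 827, 632, 1329 and 593 with p53 and at 16.7, 0 and 3.29 with β-catenin (-7.56 ± 0.92, adjusted p = 0.00227). Kl, the co-receptor for FGF23, was at 475, 100, 352 and 144 with p53 and at 0, 1.66 and 0 with β-catenin (adjusted p = 0.000352), and Dao, an oxidase of D-amino acids, at 139 to 517 against 0 to 0.8292 (adjusted p = 0.000273). Cdh16 in the first table was at 463, 12.9 and 1828 with p53 and at 1.02 and 0 with β-catenin. Pax8 overlapped there, at 502, 7.97 and 936 with p53 and at 1.02 and 27.4 with β-catenin, whereas Kl and Dao did not. Pou3f1, a transcription factor of the nervous system, was at 504 to 1562 with p53 and 2.91 to 14.8 with β-catenin (-6.91 ± 0.56, adjusted p = 0.000271), and Crhr2, a receptor for urocortins, at 201 to 926 and 0.823 to 7.28 (-6.64 ± 0.71, adjusted p = 0.00121). Both also passed the filter on low values only through the p53 tumours. In the first table Pou3f1 overlapped, at 1383, 6.97 and 918 with p53 and at 4.09 and 8.72 with β-catenin, whereas Crhr2 did not.

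Wdr63 and Fam183b were also among the largest falls. Both passed the filter on low values only through the p53 tumours, so their adjusted p are a description. Wdr63, a part of the dynein that moves cilia, was at 212, 111, 196 and 82.0 with p53 and at 0, 0.8292 and 0 with β-catenin (adjusted p = 0.000238). Fam183b, a gene of ciliated cells, was at 254, 166, 163 and 269 with p53 and at 0.728, 0 and 0 with β-catenin (adjusted p = 5.71e-05). With the JAX tumours alone on the genes of the full comparison, the log2 difference of Fam183b was -7.81. Under the JAX tumours' own filter Fam183b was not tested. Foxj1, the master regulator of motile cilia and singled out here after its values were seen, was at 618, 93.8, 379 and 40.4 with p53 and 5.09, 6.63 and 33.7 with β-catenin (-3.89, adjusted p = 0.0284). Without β-catenin tumour 1 or 2 or p53 tumour 1 or 3 the adjusted p of Foxj1 rose to 0.0697 to 0.077.

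Most airway and alveolar secretory genes were higher with β-catenin. Scgb1a1, the club cell secretoglobin of the lung airway (chromosome 19, 9083636 to 9087958, minus strand), was at 0, 0.92, 0.995 and 1.19 with p53 and at 410, 472 and 448 with β-catenin. The p53 group held 3 reads in all against 1676, and the difference had an adjusted p of 2.09e-05, and of 0.0105 with the JAX tumours alone. Sftpc, the surfactant protein of alveolar type 2 cells, was at 2.74, 4.6, 7.96 and 0 with p53 and at 408, 377 and 356 with β-catenin (adjusted p = 0.000804, and 0.0105 with the JAX tumours alone). Sftpb, another surfactant protein, was at 0 to 8.28 with p53 and 64.8, 73.0 and 69.1 with β-catenin (adjusted p = 0.00757). Scgb3a2, a second airway secretoglobin, was at 0 in all 4 p53 tumours and at 9.46, 10.8 and 4.94 with β-catenin, at least 2.79-fold higher against a floor of 3 reads per library. Such floors cover counting error only. Values of Scgb1a1 and Sftpc varied little among the 3 β-catenin tumours, and all 3 luc β-catenin tumours held them too, at 453 to 1079 for Scgb1a1 and 347 to 881 for Sftpc. p53 tumour 4, whose name also begins with JAX, did not. In the first table Scgb1a1 was at 0 in all 5 lucOS tumours and Sftpc at 0 to 1.84 with p53 and at 3.07 and 8.72 with β-catenin. The list of 8 genes had 5 of 7 members called higher and 1, Foxj1, called lower; all 5 passed the filter on low values only through the β-catenin tumours, so this count is a description. The summed list was 1022 to 1210 with β-catenin and 91.5 to 665 with p53. Sftpa1, a surfactant protein also singled out after its values were seen, was present in both groups, at 26.5 to 129 with p53 and 91.0 to 243 with β-catenin (adjusted p = 0.155). Whether lung RNA contributed to these values was not tested. Sftpd lost its call without β-catenin tumour 3 (adjusted p = 0.0725).

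**Figure D3:**
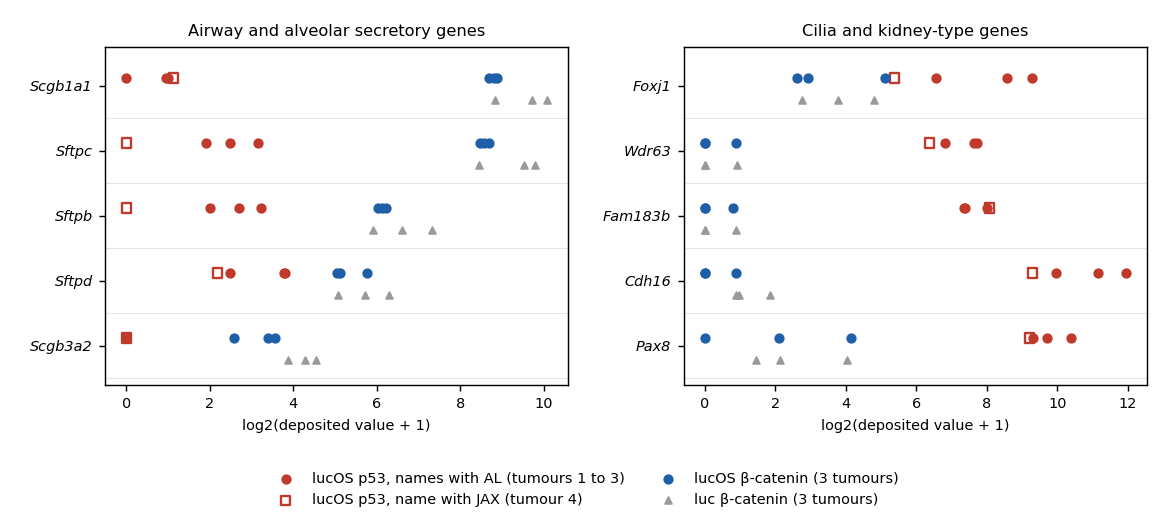
Airway and alveolar secretory genes (left) and cilia and kidney-type genes (right), as log2 of the deposited normalized read count plus 1, 1 point per tumour (red, lucOS p53, with tumour 4 as an open square; blue, lucOS β-catenin; grey triangles, luc β-catenin). Scgb1a1 and Sftpc are present in all 6 β-catenin tumours and at most 7.96 in the p53 tumours, while Cdh16, Wdr63 and Fam183b are at or below 2.59 in the β-catenin tumours.

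T cell genes were lower with β-catenin. Of 17 T cell markers tested, 14 were called lower and 0 higher, with a median of -2.11 with all tumours and -1.40 with the JAX tumours alone. Of the 14, 6 reached 10 in under 3 β-catenin tumours, luc ones included. These 6 needed the p53 tumours to pass the filter on low values. With a filter of 50 in place of 10, 8 were called, and without a filter the median was -2.11. The summed value of the list was 540 to 841 with β-catenin and 1451 to 2402 with p53. In bulk tissue, fewer cells of a type and less RNA per cell cannot be told apart. Cd3e, a chain of the T cell receptor complex, was at 51.1, 51.5, 48.8 and 38.0 with p53 and at 7.28, 6.63 and 14.8 with β-catenin (log2 difference -2.26 ± 0.38, adjusted p = 0.00726). Cd8a, the co-receptor of cytotoxic T cells, was at 139, 187, 109 and 92.7 with p53 and at 12.4, 21.6 and 20.6 with β-catenin (-2.78 ± 0.52, adjusted p = 0.00978). Lck, the kinase that starts T cell receptor signalling, was at 109, 150, 121 and 72.5 with p53 and at 8.01, 12.4 and 16.5 with β-catenin (-3.11 ± 0.42, adjusted p = 0.00341). p53 tumour 4 was the lowest p53 tumour for each of these genes and still above every β-catenin tumour. Cd4, the co-receptor of helper T cells, was at 398, 335, 214 and 78.4 with p53 and at 75.7, 63.0 and 63.4 with β-catenin, and was not called (adjusted p = 0.0988). For Cd4, p53 tumour 4 was next to the β-catenin tumours, and the difference with the JAX tumours alone was -0.22. The count of T cell markers called fell to 6 without p53 tumour 3.

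Cytotoxic and natural killer cell genes were called lower for 13 of 14 members, with a median of -2.71 with all tumours and -2.36 with the JAX tumours alone, and their sum was 102 to 181 with β-catenin against 838 to 1245 with p53. Of the 13, 9 passed the filter on low values only through the p53 tumours, and the median without that filter was -2.65. Gzma, a protease that killer cells inject into targets, was at 196, 70.8, 110 and 127 with p53 and at 13.8, 9.12 and 9.87 with β-catenin (log2 difference -3.34 ± 0.45, adjusted p = 0.00341). Eomes, a transcription factor of killer cells, was at 23.7, 41.4, 40.8 and 25.0 with p53 and at 0.728, 3.32 and 0.823 with β-catenin (-3.77 ± 0.51, adjusted p = 0.00378). Il2rb, a receptor chain for interleukins 2 and 15, was at 531, 305, 453 and 310 with p53 and at 48.8, 85.4 and 33.7 with β-catenin (-2.88 ± 0.39, adjusted p = 0.0038). In these p53 tumour 4 lay among the other p53 tumours. Klrd1, an NK receptor, was lower (-3.06 ± 0.45, adjusted p = 0.0046). Gzmb, a second granzyme, was at 73.7 to 116 with p53 and 7.46 to 9.46 with β-catenin (-3.23 ± 0.73, adjusted p = 0.0186) and lost its call without β-catenin tumour 3 (0.0527) or p53 tumour 3 (0.0545). Prf1, the pore-forming perforin, was at 27.4 to 71.8 with p53 and 3.32 to 11.6 with β-catenin (adjusted p = 0.0217), and its call was lost without β-catenin tumour 2 or 3 or p53 tumour 2 or 3, with adjusted p up to 0.0655.

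Checkpoint and regulatory T cell genes were called lower for 7 of 16 members and higher for 0, a count of 2 without p53 tumour 2 or 3. Of the 7, 5 reached 10 in under 3 β-catenin tumours, luc ones included. These 5 needed the p53 tumours to pass the filter on low values, so the count is a description. With a filter of 50 in place of 10, 3 were called. The list's median was -1.20, with or without the filter. Pdcd1lg2, the second ligand of PD-1, was at 35.6, 24.8, 51.7 and 27.3 with p53 and at 0.728, 0 and 0.823 with β-catenin (log2 difference -4.56 ± 0.52, adjusted p = 0.00159). Cd274, which encodes PD-L1, was at 419, 697, 328 and 294 with p53 and at 143, 134 and 105 with β-catenin (-1.69 ± 0.32, adjusted p = 0.0111). Pdcd1, PD-1 itself, was at 29.7 to 86.5 and 5.81 to 9.46 (adjusted p = 0.0218, and up to 0.0623 without β-catenin tumour 2 or 3 or p53 tumour 1, 2 or 3). Foxp3, the factor of regulatory T cells, did not pass although its groups did not overlap, at 419 to 702 with p53 and 339 to 387 with β-catenin (adjusted p = 0.114). The counts of dendritic and B cell markers are read beside the 10.9% of all genes called lower. Of 14 dendritic cell markers 2 were called lower (1 after TMM rescaling or without β-catenin tumour 2 or 3 or p53 tumour 1, 2 or 3), among them Siglech of plasmacytoid dendritic cells, at 15.5 to 42.8 with p53 and 0.823 to 2.18 with β-catenin (adjusted p = 0.00541). Xcr1, the receptor of cross-presenting dendritic cells, was low in both groups, at 2.38 to 18.9 with p53 and 8.73 to 17.3 with β-catenin (adjusted p = 0.64). Of 6 B and plasma cell markers 1, Mzb1 of plasma cells, was called lower (-2.07, adjusted p = 0.014).

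Chemokines were called lower for 5 of 17 members and higher for 0, with a median of -1.85 with all tumours and -1.15 with the JAX tumours alone. With 1 tumour left out the count was 3 to 7, lowest without p53 tumour 3. Of 10 chemokine receptors 7 were called lower, and 0 without p53 tumour 1 or 3. Cxcl10, the interferon-induced attractant of Cxcr3-bearing T cells (chromosome 5, 92346638 to 92348889, minus strand), was at 1709, 1581, 1144 and 1225 with p53 and at 111, 99.5 and 250 with β-catenin. The groups stood far apart, and p53 tumour 4 lay among the other p53 tumours (log2 difference -3.30 ± 0.40, adjusted p = 0.00207, and -3.12 with the JAX tumours alone). Ccl5, which attracts T cells and dendritic cells, was at 176, 202, 126 and 86.7 with p53 and at 20.4, 27.4 and 19.8 with β-catenin (-2.61 ± 0.56, adjusted p = 0.0162, and 0.0516 without β-catenin tumour 3). Cxcl12, a stromal attractant, was at 9041, 9140, 9166 and 6314 with p53 and at 2511, 2879 and 1764 with β-catenin (-1.83 ± 0.33, adjusted p = 0.0093). Cxcl1, which draws neutrophils, was at 296, 769, 712 and 955 with p53 and at 30.6, 139 and 118 with β-catenin (-2.96 ± 0.66, adjusted p = 0.0181, and 0.0513 without p53 tumour 3). Cxcl9 did not pass, at 202 to 718 with p53 and 111 to 186 with β-catenin (adjusted p = 0.0657). In the first table Cxcl10 was at 1089, 298 and 620 with p53 and at 175 and 258 with β-catenin. The 250 bases before the Cxcl10 start are shown because Cxcl10 had the largest separation of the attractants described (RefSeq, GRCm38.p6, chr5:92348890-92349139, minus strand). Capitals mark the core of the interferon-stimulated response element, TTTC and TTTC with 2 bases of any kind between them, read here on the other strand 213 bases before the start, and the NF-kB motif, GGGA and TTCC with 2 bases of any kind between them, 159 bases before it:
Cxcl10: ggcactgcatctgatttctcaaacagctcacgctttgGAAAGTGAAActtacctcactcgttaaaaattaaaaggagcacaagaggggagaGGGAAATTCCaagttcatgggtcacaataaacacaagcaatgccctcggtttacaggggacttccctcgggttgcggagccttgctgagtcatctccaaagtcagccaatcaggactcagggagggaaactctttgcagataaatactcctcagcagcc

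**Figure D4:**
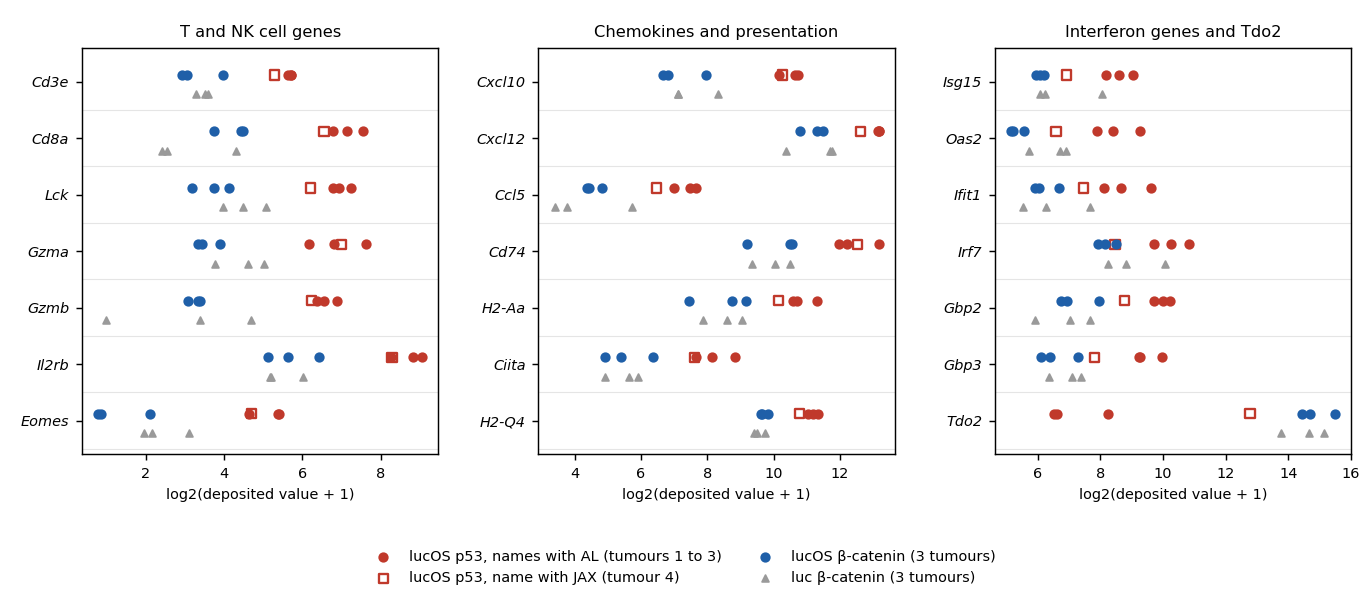
T and NK cell genes, chemokine and antigen presentation genes, and interferon genes with Tdo2, as log2 of the deposited normalized read count plus 1, 1 point per tumour (red, lucOS p53, with tumour 4 as an open square; blue, lucOS β-catenin; grey triangles, luc β-catenin). Tumour 4 lies at or near the other p53 tumours for Gzma, Il2rb, Cxcl10 and Cd74, and between them and the β-catenin tumours for Isg15, Oas2 and Gbp3 and, from the other side, Tdo2.

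MHC class II genes were called lower for 8 of 10 members tested and higher for 0, with a median of -2.29, -1.99 with the JAX tumours alone, and a list sum of 3033 to 5381 with β-catenin against 13200 to 22800 with p53. H2-Aa, the α chain of a class II molecule, was at 1649, 1531, 2507 and 1128 with p53 and at 576, 175 and 428 with β-catenin (log2 difference -2.22 ± 0.44, adjusted p = 0.0126). Cd74, the chaperone of class II molecules, was at 4761, 4017, 9176 and 5865 with p53 and at 1510, 579 and 1452 with β-catenin (-2.39 ± 0.41, adjusted p = 0.00796). Ciita, the switch that turns class II genes on, was at 278, 202, 458 and 194 with p53 and at 80.8, 29.0 and 41.1 with β-catenin (-2.51 ± 0.45, adjusted p = 0.00908). H2-DMb1, which helps load class II peptides, was lower (-2.37 ± 0.38, adjusted p = 0.00624). MHC class I genes were more mixed: 6 of 17 were called lower and 0 higher, with a median of -0.55, or -0.27 with the JAX tumours alone. The inducible members Psmb9 and Psmb8, subunits of the immunoproteasome, were lower (-1.98 and -1.76, adjusted p = 0.0135 and 0.0148), and Nlrc5, the class I counterpart of Ciita, was at 473, 1061, 653 and 507 with p53 and at 152, 216 and 155 with β-catenin (-1.89 ± 0.31, adjusted p = 0.00635). H2-Q4, a non-classical class I gene with near-identical relatives, was at 2096, 2575, 2330 and 1749 with p53 and at 899, 788 and 799 with β-catenin (-1.39 ± 0.17, adjusted p = 0.00205). The classical molecule H2-K1 overlapped, at 8555 to 16530 with p53 and 8355 to 16890 with β-catenin (adjusted p = 0.797). B2m, the shared light chain, was at 11520 to 14350 with p53 and 7157 to 9327 with β-catenin; its groups did not overlap, yet it was not called (-0.55 ± 0.19, adjusted p = 0.0735).

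Type I interferon-stimulated genes were called lower for 9 of 24 members and higher for 0, with a median of -1.58 with all tumours and -0.61 with the JAX tumours alone. The count was 5 after TMM rescaling. With 1 tumour left out it was 14 without p53 tumour 4, 3 without β-catenin tumour 1 or 2, and 1 without β-catenin tumour 3 or p53 tumour 1, 2 or 3. Isg15, a ubiquitin-like protein of antiviral defence, was at 389, 523, 288 and 121 in p53 tumours 1 to 4 and at 72.8, 66.3 and 60.9 with β-catenin (log2 difference -2.11 ± 0.58, adjusted p = 0.0351, and between 0.066 and 0.0942 without any 1 tumour other than p53 tumour 4). Oas2, a sensor of double-stranded RNA, was at 340, 621, 240 and 95.1 with p53 and at 46.6, 36.5 and 34.6 with β-catenin (-2.73 ± 0.57, adjusted p = 0.0151). In both, p53 tumour 4 lay between the other p53 tumours and the β-catenin tumours. Ifit1, which binds foreign RNA, followed the same order (-2.25 ± 0.59, adjusted p = 0.0311, and up to 0.0923 without β-catenin tumour 1 or 3 or p53 tumour 1, 2 or 3). Irf7, a master regulator of interferon genes, did not pass, at 1217, 1807, 841 and 353 with p53 and 245, 282 and 364 with β-catenin (adjusted p = 0.0709). In the first table the list's median was 0.01, and Isg15 was at 308, 256 and 192 with p53 and at 155 and 307 with β-catenin. Genes induced by interferon γ were called lower for 7 of 11 members, and for 2 without β-catenin tumour 3. Their median was -1.80 with all tumours and -0.86 with the JAX tumours alone. Gbp2, a guanylate-binding protein, was at 845, 1200, 1019 and 440 with p53 and at 249, 107 and 122 with β-catenin (-2.46 ± 0.49, adjusted p = 0.0128). Socs1, the feedback inhibitor of interferon signalling, was at 44.7, 59.8, 43.8 and 28.5 with p53 and at 6.55, 9.95 and 9.05 with β-catenin (-2.22 ± 0.45, adjusted p = 0.014). Gbp3 was lower (-2.46 ± 0.51, adjusted p = 0.0145, and 0.0511 without β-catenin tumour 3).

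Isg15 is shown for its run of overlapping interferon motifs (RefSeq, GRCm38.p6, chr4:156200819-156201068, minus strand). The 3 matches of the TTTC motif, all on the other strand and in capitals, begin 78, 72 and 66 bases before the start and overlap one another:
Isg15: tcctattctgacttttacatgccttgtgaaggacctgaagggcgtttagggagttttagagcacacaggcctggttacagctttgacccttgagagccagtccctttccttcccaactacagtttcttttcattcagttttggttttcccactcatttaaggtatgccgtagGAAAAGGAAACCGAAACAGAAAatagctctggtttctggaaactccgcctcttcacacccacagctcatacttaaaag

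The interferon motif was in 10 of the 18 windows found for type I interferon-stimulated genes (55.6%), in 9 of the 12 found for interferon γ genes (75.0%) and in 3.44% of all promoter windows. The NF-kB motif was in 3 of the 11 windows found for chemokines (27.3%) and in 1.47% of all. Lgr5, Notum, Ccl5 and Cdh16 are not in the promoter table used here.

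Macrophage markers did not move as a block: 3 of 20 were called higher and 3 lower, with a median of -0.05 that was 0.10 after TMM rescaling and -0.38 to 0.26 with 1 tumour left out, lowest without β-catenin tumour 2 and highest without p53 tumour 2, and the summed value overlapped, at 10560 to 22390 with β-catenin and 15000 to 29900 with p53. Over all genes 6.08% were called higher and 10.9% lower. Without β-catenin tumour 3, 0 macrophage markers were called in either direction, and without p53 tumour 1, 0 were called lower. Clec4f, a lectin of liver-resident Kupffer cells, was at 0, 0.92, 0.995 and 11.9 with p53 and at 170, 47.3 and 430 with β-catenin (log2 difference 5.85 ± 1.24, adjusted p = 0.0157, and 0.0566 without β-catenin tumour 3). Vsig4, a complement receptor of the same cells, was at 1.84 to 9.51 with p53 and 29.9 to 202 with β-catenin (adjusted p = 0.0327). Emr1, the symbol used in the table for the F4/80 antigen Adgre1, was at 949, 1367, 848 and 727 with p53 and at 463, 556 and 289 with β-catenin (-1.17 ± 0.27, adjusted p = 0.0211, and 0.0631 without β-catenin tumour 3 and 0.0525 without p53 tumour 1). Csf1r, the receptor for the macrophage growth factor CSF1, was at 1284 to 2404 with p53 and 795 to 1369 with β-catenin (adjusted p = 0.0477, and 0.0958 after TMM rescaling), and the monocyte gene Ly6c2 was at 44.0 to 197 and 19.7 to 25.7 (adjusted p = 0.0264). Without β-catenin tumour 1 or 3 or p53 tumour 1, 2 or 3 the calls of Vsig4, Csf1r and Ly6c2 were lost, with adjusted p up to 0.111, 0.147 and 0.0694. Clec4f overlapped in the first table, at 4.47, 391 and 1276 with p53 and at 100 and 227 with β-catenin.

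Counts for markers of other cell types are read beside the 6.08% of all genes called higher and the 10.9% called lower. Of 20 endothelial markers 2 were called lower and 0 higher. The lower calls fell to 0 without β-catenin tumour 2 or 3 or p53 tumour 2, 3 or 4, and the direction turned in other fits, with 2 higher and 0 lower in edgeR, 5 higher and 1 lower in DESeq2 and 3 higher and 0 lower without β-catenin tumour 2. Of 16 stellate cell and matrix genes 3 were called higher (0 without β-catenin tumour 3). Their list median was -0.35, and -0.66 to 0.14 with 1 tumour left out, beside -0.16 for all genes. The list sums overlapped, at 7713 to 29190 with β-catenin and 19840 to 31260 with p53. Of 11 neutrophil markers 2 were called lower (1 with any 1 tumour left out). Of 7 red blood cell genes 0 passed in limma, edgeR or DESeq2, with 0 at an unadjusted p under 0.05. The mesothelial marker Lrrn4 was called higher, at 0.913 to 25.0 with p53 and 157, 48.1 and 225 with β-catenin (log2 difference 4.88 ± 0.92, adjusted p = 0.0106), the 1 member of 4 to pass; the summed list overlapped, at 70.5 to 325 with β-catenin and 21.9 to 198 with p53. Krt19, a keratin of bile ducts, overlapped, at 8.32 to 258 with p53 and 23.3 to 69.1 with β-catenin (adjusted p = 0.793). The part of these cell types in the differences above was not tested.

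Some genes with a place in none of these lists were among the largest rises. Pkp1, a plaque protein of desmosomes, was at 0, 0.92, 0 and 1.19 with p53 and at 1391, 23.2 and 165 with β-catenin (adjusted p = 0.00662). Srrm4, a splicing factor of neurons, was at 0 to 1.84 with p53 and 96.8, 773 and 174 with β-catenin (adjusted p = 0.00114). Srrm4os, its antisense neighbour, rose too (adjusted p = 0.00228), but the labels do not say that strand was counted, so reads of the pair cannot be told apart. Greb1, an oestrogen-responsive gene, was at 0.995 to 4.6 with p53 and 1872, 57.2 and 1035 with β-catenin (log2 difference 7.29 ± 1.64, adjusted p = 0.0186, and 0.0533, 0.0642 and 0.0522 without β-catenin tumour 1, β-catenin tumour 3 and p53 tumour 3). Its values in the luc β-catenin tumours were 1609, 9.70 and 37.5. In the other direction, Glrp1 was at 713, 275, 777 and 270 with p53 and at 0, 0.8292 and 3.29 with β-catenin (adjusted p = 0.000568), and Rhcg, an ammonium transporter of kidney and skin, at 135, 44.2, 841 and 108 and at 0, 0.8292 and 0 (adjusted p = 0.00256). The genes of this paragraph were picked as the largest changes without overlap of the groups. Each passed the filter on low values only through the group where it is high, so these adjusted p are a description.

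The first table, which holds other tumours of the same 2 genotypes and was normalized separately, gave the same direction for 887 of the 950 genes called higher here (93.4%) and for 1599 of the 1706 called lower (93.7%). Over all genes tested, 41.6% were higher with β-catenin there. The median differences in the first table were 1.09 for the genes called higher and -0.88 for those called lower, and no test was made across tables. By list, the first-table medians were 3.04 for pericentral genes, -1.86 for cytotoxic and NK cell genes, -1.26 for T cell markers and -1.24 for MHC class II genes, beside -0.14 for all genes. They were 0.01 for type I interferon-stimulated genes and 0.82 for Wnt targets, against -1.58 and 2.66 in the second table. These medians do not show the spread between first-table tumours. Cd74 overlapped there, at 15220, 2246 and 1328 with p53 and at 1512 and 1438 with β-catenin. So did Cd3e, at 87.6, 35.9 and 8.28 against 11.3 and 9.97. Cd8a did not overlap, at 131, 39.8 and 24.9 against 12.3 and 8.72, nor did Gzma, at 113, 63.7 and 13.8 against 5.11 and 7.475.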

How the data were processed

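Libraries were prepared with TruSeq reagents (per the labels' protocols; whether strand was kept is not given there). The authors deposited 2 tables of normalized signal, the second with 1 row per gene. The first holds 33068 transcript rows for 24061 gene symbols. For each symbol its row with the highest mean was used, so first-table values are those of 1 transcript row. The submitters' processing notes list TopHat2, featureCounts, DESeq2 and mm10 and give no version. Of the values in the table used here, 100% were whole reads divided by 1 factor per sample, within a tolerance of 0.01 reads, and these reads gave depth, floors (3 reads per library) and the inputs of the count tests. Of 24046 symbols, 27 had been turned into date numbers and were left out. Symbols were matched to RefSeq, GENCODE or the first table.

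The 10 tumours of the second table were fitted together as 3 groups with limma 3.58.1 (trend) in R 4.3.3, on log2(value + 1), over the 15625 genes that reached 10 in 3 or more tumours. Genes with a Benjamini-Hochberg adjusted p under 0.05 are called higher or lower with β-catenin. A log2 difference on this scale understates the change of low genes. The fit was tested on simulated data with changes put into the lucOS β-catenin group. It recovered 18.2% of 66 changes of 1 log2 unit, 78.1% of 64 changes of 2 units and 95.7% of 70 changes of 3 units. Of the unchanged genes 5 were called. Most changes of 1 log2 unit were thus missed there. Changes were put only into genes above a minimum mean, and the spread followed a trend over genes. The simulated data held no prefix or scale difference and few changed genes, so these results describe that setting only. Alternatives were edgeR 4.0.16 and DESeq2 1.42.0 on the recovered reads, TMM rescaling, median centring, other pseudocounts and filters, the 2 lucOS groups alone, the name prefix as a term, the JAX tumours alone, and each tumour left out in turn.

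The comparison and the 36 gene lists were chosen with earlier results of these data known. Of 547 list entries, 541 were in the table and 507 were tested. Some called members needed the group where they are high to pass the filter on low values. Lists for which this is not said above held up to 2 of them. They were 2 of 5 calls in fatty acid oxidation, 2 of 7 in chemokine receptors and 2 of the 3 higher calls in macrophage markers. Genes were named by rule: Trp53, Ctnnb1, Myc and Ccl5, the 12 called genes per direction with the largest change among those whose groups did not overlap and whose higher group had a mean of at least 100, and in each list the first 3 members and the 5 with the smallest p. Of the genes with the largest fall, 1 is not reported here. Replicate numbers follow accession order and pair nothing.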

Additional observations from a re-analysis of the deposited data

Results flagged for a closer look

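Among the 4 p53 tumours, 1 value stood apart from the other 3 by Dixon's criterion at the 95% level on the log2 scale for 5 of the 118 genes named, a criterion that chance meets for about 1 in 20 groups. Myc was low in p53 tumour 1, at 68.5 against 121 to 130. Por was high in p53 tumour 4, at 9488 against 4839 to 5122, and Cxcl12 was low there, at 6314 against 9041 to 9166. For Scgb1a1, p53 tumour 1 was at 0 against 0.92 to 1.19, and for Srrm4os it was at 0.913 against 0, which are differences of 1 read.

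Sftpb went in opposite directions in the 2 tables without overlap of the groups: it was 4.15 log2 units higher with β-catenin in the second table and differed by -1.88 in the first, where it stood at 8.04, 6.97 and 11.96 with p53 and at 1.02 and 2.49 with β-catenin. The difference between the tables was not tested.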

How the results depend on the processing

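The number of genes called, 2656, stayed within 1.5 times under the other pseudocounts and filters, TMM rescaling (2344), median centring (2311), the 2 groups alone, edgeR (2230) and DESeq2 (3842). It was 63 with the name prefix as a term, 23 with the JAX tumours alone and 27 with these tumours and the genes of the full comparison, an alternative added after seeing the data. These leave 1 p53 tumour against 3. With 1 tumour left out it was 1127 to 2209, lowest without p53 tumour 3 (1127), β-catenin tumour 3 (1222), p53 tumour 1 (1232) and p53 tumour 2 (1708). The median of all genes was -0.16, and -0.0044 after TMM rescaling, -0.045 after median centring, 0.0067 in edgeR and 0.0082 in DESeq2. Of 95 named genes called, 92 kept their call in edgeR, 93 after TMM rescaling, 70 with each tumour left out in turn, 18 with the prefix as a term and 9 with the JAX tumours alone on the same genes, and 0 changed sign. Among uncalled genes, DESeq2 called Glul, Cyp3a11, Cyp7a1, Cd4, Cxcl9 and Irf7.

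Signs changed for 7 uncalled genes, and the cause was not tested. Ctnnb1 was 0.078 with the JAX tumours alone, on either set of genes, and with the prefix as a term, and Cdkn1a was -0.28 in those fits. With 1 tumour left out, Myc was -0.41 to 0.87, Cdkn1a -0.41 to 0.67, H19 -0.73 to 0.82, Krt19 -0.21 to 1.39 and H2-K1 -0.40 to 0.11. In DESeq2 and edgeR, Afp was 0.095 and 0.090, H19 0.48 and 0.47, Krt19 -0.47 and -0.47, and H2-K1 0.037 and 0.034. After TMM rescaling H19 was 0.055 and H2-K1 0.024, and after median centring H19 was 0.014.

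No paired analysis was possible because the labels give the tumours no replicate numbers shared between groups. With 3 and 4 tumours a gene that was not called is not shown to be equal in the groups.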

Other observations

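Lists not described above are read beside the same shares, 6.08% of all genes called higher and 10.9% called lower. Of 17 glycolysis and glucose transport genes 1 was called higher and 1 lower (median -0.01, and 0.15 after TMM rescaling). The higher call was lost without β-catenin tumour 1 or 3 or p53 tumour 1, 2 or 3, and the lower one without any 1 tumour other than p53 tumour 1. Of 7 bile duct and progenitor markers 1 was called lower (median -0.16, and 0.80 with the JAX tumours alone), and 0 in edgeR or without β-catenin tumour 1 or 3 or p53 tumour 1 or 3. With 1 tumour left out that median was -0.88 (without β-catenin tumour 2) to 0.27 (without p53 tumour 1). Of 2 acinar pancreas genes tested 0 were called in limma or edgeR.

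For genes with 1 to 3 reads in a whole group, the ratio of the groups' summed reads on the deposited scale is given with its exact 95% Clopper-Pearson interval, which covers counting error only and not the spread between tumours. Cdh16 was 7590 times higher with p53 (interval 1360 to 300000) and Fam183b 799 times (143 to 31600). Pdcd1lg2 was 66.4 times higher with p53 (18 to 554). Scgb1a1 was 593 times higher with β-catenin (203 to 2880).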
